A study of Mus musculus with 6 samples.

Results

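The genes described here are 31 genes of glucose breakdown and of the response to low oxygen, measured in activated mouse CD4 T cells with and without vasoactive intestinal peptide (VIP). They form 2 classes, 18 glycolytic enzymes and regulators of glycolysis and 13 hypoxia targets that are not enzymes of the pathway. Members were taken as the non-control array probes whose deposited gene name is on the list, and the brightest probe stood for each gene. By this rule 30 of the 31 genes had a probe, with 51 probes and 69 spots in all, and all 30 were among the 22890 genes tested. Kdm3a had no probe under that name. Its older name, Jmjd1a, was found by RefSeq accession, and its brightest probe lay at 0.06 ± 0.050 (SE, n = 6 arrays) as a log2 ratio of VIP over untreated.

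VIP is a neuropeptide that T cells sense through receptors that raise cyclic AMP. The cells were CD4 T cells from spleens of C57BL/6J mice, males and females aged 6 to 32 weeks, with 5 to 10 spleens pooled per sample and the cells taken with anti-CD4 magnetic beads. Both groups were activated with PMA and ionomycin, a pair of agents that drive protein kinase C and calcium signals without the T cell receptor, and by the labels they differed only in VIP, whose dose and time the sources used here do not give. Each of 6 two-colour arrays, labelled biological replicates, compared RNA of cells with VIP against RNA of cells without it, with VIP in the red dye (Cy5) on replicates 1, 3 and 5 and in the green dye (Cy3) on replicates 2, 4 and 6. A ratio here is the log2 ratio of VIP over untreated within 1 array, so that 0 is no difference, and a positive value is a higher signal with VIP.

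Glycolysis splits glucose into pyruvate, and activated T cells are known for running it at a high rate even with oxygen present, turning much of the pyruvate into lactate. Most of the steps are near equilibrium, while hexokinase and phosphofructokinase set the pace. The PFKFB enzymes make and remove fructose-2,6-bisphosphate, the strongest activator of phosphofructokinase. Many of these genes are also targets of the hypoxia-inducible factors HIF-1 and HIF-2, pairs of an oxygen-labile alpha subunit and ARNT, which bind a short core sequence called the hypoxia response element.

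Of the 18 glycolytic genes, 1 rose and none fell. Pfkfb4, which makes and degrades the activator of phosphofructokinase, was 1.24-fold higher with VIP (log2 ratio 0.32 ± 0.042, SE, n = 6; limma adjusted p = 0.00313). The other listed glycolytic genes, which include enzymes from hexokinase to lactate dehydrogenase, did not pass the test. Pyruvate kinase is not on the list, and its gene Pkm, tested apart, was at 0.12 and not called (limma adjusted p = 0.409). Of the 12 hypoxia targets tested, Adm (adrenomedullin, a secreted vasodilator peptide) and P4ha2 (a catalytic subunit of collagen prolyl 4-hydroxylase) rose, and Ankrd37 (an ankyrin repeat protein) fell. A call means an adjusted p under 0.05 in limma over all 22890 genes, where 1.65% of genes were called higher, 0.459% lower and 2.11% in either direction. The 4 calls made up 13.3% of the members, 5.6% of the enzymes and 25% of the hypoxia targets, shares that rest on 1 and 3 genes.

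The measured sequences of the 4 called genes are shown because each call rests on 1 probe. Given here are the first 30 bases of each 60-base probe, 5′ to 3′ as deposited, with mm9 positions of the whole probe as the files give them. The Pfkfb4 probe lies at chr9:108934627-108934686 on the plus strand, the Adm probe at chr7:117773088-117773147 and the P4ha2 probe at chr11:53945032-53945091, both also on the plus strand, and the Ankrd37 probe at chr8:47082404-47082463 on the minus strand. No annotation of that build was used here, so the exon or untranslated region of each probe is not given.
Pfkfb4 probe: catttcctgctttccctagaatgtattatc
Adm probe: taagggcattttaaagtgattatattgtca
P4ha2 probe: cagatatttcaggtagaagatgtctcagtg
Ankrd37 probe: gaggaaagaagaggcttgaagaagagcttc

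The probes that stood for the 30 genes were well above background in both channels on all 6 arrays, and none had a saturated spot. Of all spots, 56.9% to 99.9% were well above background, depending on array and channel. Replicate 5 stood apart. There, 13.5% of spots carried an outlier flag, against at most 4.44% elsewhere. Its channels also differed in sex-linked transcripts, with a log2 ratio after removal of the dye effect of -2.78 for Xist and 3.36 for Ddx3y. The dye effect was fitted with replicate 5 included. On the other arrays these ratios ran from -0.82 to 0.95 for Xist and from -0.67 to 0.97 for Ddx3y. Of the 30 members, 8 had no unflagged spot on replicate 5. Whether both RNAs of replicate 5 came from the same pool of mice was not tested. Without replicate 5 the calls of Pfkfb4, Adm and P4ha2 were also made, with adjusted p-values of 0.00293, 0.000524 and 0.00378. Ankrd37 has no value on that array, so leaving it out removed none of its values, and its adjusted p of 0.0158 there reflects the rest of the fit. The samples are pools of spleens, and each p here covers array-to-array spread alone. VIP in Cy5 always sat at 1 slide position and VIP in Cy3 at another, so dye and position cannot be told apart. Defining T cell markers were detected, with log2 ratios of 0.05 ± 0.043 (SE, n = 6) for Cd4 and 0.06 ± 0.044 (SE, n = 6) for Cd3e.

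The bifunctional enzymes Pfkfb4 and Pfkfb3 gave both of the smallest p-values among the glycolytic genes, and their ratios had opposite signs. Pfkfb1 and Pfkfb2, which are not members, lay at 0.05 and 0.00 (limma adjusted p = 0.728 and 0.984). Pfkfb4 read 0.18, 0.26 and 0.33 on the arrays with VIP in Cy5 (replicates 1, 3 and 5) and 0.45, 0.35 and 0.32 on those with VIP in Cy3 (replicates 2, 4 and 6), before removal of the dye effect. All 6 arrays were above 0, replicate 1 was lowest and replicate 2 highest, and those lie on the same slide. Within the 3 slides, each with 1 array of either dye order, the mean ratio was 0.32, 0.31 and 0.33. The fitted ratio had a 95% interval of 0.22 to 0.41.

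Pfkfb3, the isoform best known in proliferating and activated cells for its high kinase activity, read -0.32, -0.17 and -0.18 with VIP in Cy5 and -0.00, -0.09 and -0.13 with VIP in Cy3. Every array was below 0, with replicate 2 at the edge. The fitted log2 ratio was -0.15 ± 0.042 (SE, n = 6), with an adjusted p of 0.134, and did not pass the test. Its other 2 probes both gave -0.01, so the lower value was seen on 1 of 3 probes.

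On each array the Pfkfb4 ratio exceeded the Pfkfb3 ratio by 0.43 to 0.51, with a mean difference of 0.46 ± 0.029 (SD after removal of the dye effect, n = 6 arrays). Flipping the sign of this difference over the arrays, as an exact permutation test (two-sided), gave p = 0.03125, the smallest that 6 arrays allow. After adjustment over the 9 pairs of related genes compared, the p of this test was 0.141. Pairs with 5 arrays can reach no p below 0.0625 in it, so no adjusted p over these pairs could fall under 0.05. The pairs were chosen with earlier results of these data known, and this pair sets the highest ratio of the class against the lowest. It also uses the Pfkfb3 probe at -0.15 and not those at -0.01. No conclusion is therefore drawn from this test. The dye effects of both probes were close to each other, at -0.06 and -0.08.

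**Figure D1:**
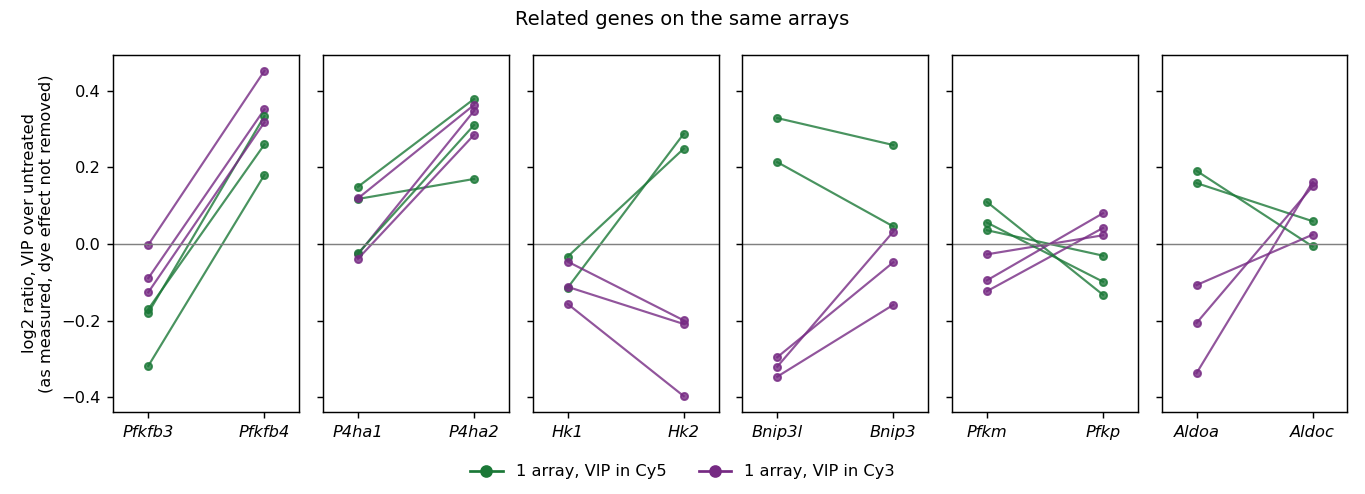
Log2 ratio of VIP over untreated, as measured on each array with the dye effect still in it, for 6 of the 9 pairs of related genes; each line joins both genes on 1 array, green for VIP in Cy5 and purple for VIP in Cy3. Lines from Pfkfb3 to Pfkfb4 and from P4ha1 to P4ha2 rise on all 6 arrays, while in the other 4 pairs the slope or the level follows the dye.

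At the entry of the pathway, hexokinases trap glucose in the cell as glucose-6-phosphate. Hk1, the widely expressed form, read -0.11 and -0.03 with VIP in Cy5 on replicates 1 and 3 and -0.11, -0.05 and -0.16 with VIP in Cy3, with no value on replicate 5. All 5 arrays were below 0, yet the fitted ratio of -0.09 ± 0.047 (SE, n = 5) had an adjusted p of 0.487. Its 6 probes ranged from -0.09 to 0.09, with 4 below 0. Hk2, the form induced by growth and hypoxia signals, had a fitted ratio of -0.01 ± 0.044 (SE, n = 6), a value left after removal of a dye effect of 0.26. The raw ratio of Hk2 ran from 0.19 to 0.29 with VIP in Cy5 and from -0.40 to -0.20 with VIP in Cy3. The sign of its raw ratio thus followed the dye. Gpi1, which turns glucose-6-phosphate into fructose-6-phosphate, was at -0.04 ± 0.052 (SE, n = 6).

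The phosphofructokinase subunits, which carry out the committed step, lay at -0.09 ± 0.053 (SE, n = 5) for Pfkl (the liver-type subunit), -0.02 ± 0.039 (SE, n = 6) for Pfkp (platelet-type) and -0.01 ± 0.040 (SE, n = 6) for Pfkm (muscle-type). None was called, and the 95% intervals of Pfkp and Pfkm, from -0.11 to 0.07 and from -0.09 to 0.08, lie within 0.15 of 0. Aldolases split the sugar into triose phosphates. Aldoa was at -0.02 ± 0.051 (SE, n = 5) and Aldoc at 0.07 ± 0.041 (SE, n = 6).

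Further down the pathway, Tpi1 interconverts the triose phosphates, and Gapdh and Pgk1 carry out the oxidation and the first step that makes ATP. Gapdh, often used as a reference gene, was above 0 on all 5 measured arrays before removal of the dye effect. It read 0.05 and 0.04 with VIP in Cy5 and 0.01, 0.06 and 0.20 with VIP in Cy3. After removal of the dye effect replicate 2 lay at -0.01. The fitted Gapdh ratio of 0.07 ± 0.049 (SE, n = 5) was not called (limma adjusted p = 0.659). Tpi1 was at 0.07 ± 0.056 (SE, n = 6).

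Pgk1 had the largest SE among the enzymes. It read 0.03, 0.08 and -0.67 with VIP in Cy5 and -0.19, 0.10 and 0.10 with VIP in Cy3, so that replicate 5 alone gave the lowest value. The fitted ratio was -0.09 ± 0.089 (SE, n = 6), and 0.03 without replicate 5. A second Pgk1 probe shares 38 bases with the first and had values on replicates 4, 5 and 6 only, where it read 0.04, -0.67 and 0.10. Both probes thus gave the same low value on replicate 5, and the -0.30 fitted for the second probe rests on that array.

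Pgam1, which moves the phosphate of phosphoglycerate, read -0.04, -0.08 and 0.52 with VIP in Cy5 and -0.03, 0.22 and 0.30 with VIP in Cy3. The values followed the slide, with means of -0.03, 0.07 and 0.41 on slides 1, 2 and 3. Its fitted ratio of 0.15 ± 0.077 (SE, n = 6) had an adjusted p of 0.466 and was 0.05 without replicate 5. Enolases make phosphoenolpyruvate, and Eno1 and Eno2 lay at -0.03 ± 0.050 (SE, n = 5) and 0.00 ± 0.046 (SE, n = 6).

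Ldha, the lactate dehydrogenase subunit that favours lactate, had the widest dye effect of the members, 0.27. It read 0.33, 0.28 and -0.07 with VIP in Cy5 and -0.31, -0.24 and -0.53 with VIP in Cy3. The slide means of 0.01, 0.02 and -0.30 show that only slide 3 was away from 0. The fitted ratio was -0.09 ± 0.061 (SE, n = 6), and -0.03 without replicate 5.

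Pdk1, a mitochondrial kinase that shuts pyruvate dehydrogenase and so keeps pyruvate out of the citric acid cycle, read 0.13, -0.01 and 0.08 with VIP in Cy5 and 0.06, 0.03 and 0.43 with VIP in Cy3. Replicate 6 was highest and the other 5 arrays lay between -0.01 and 0.13. The fitted ratio of 0.12 ± 0.056 (SE, n = 6) was not called (adjusted p = 0.402), and a second probe gave -0.06.

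As a class the 18 glycolytic genes had a median log2 ratio of -0.02, with 7 above and 11 below 0, beside 0.00 over all genes tested. The class median on single arrays, after removal of the dye effects, had a mean of -0.00 ± 0.030 (SD, n = 6). Apart from Pfkfb4 the ratios ran from -0.15 to 0.15, and 14 of the 18 lay within 0.1 of 0, compared with 82.2% of all genes tested. For 16 of the 18 the 95% interval lay within 0.3 of 0, all but Pfkfb4 and Pgam1. Over all genes tested it did so for 21328 of 22890. The median absolute ratio was 0.07 in the class and 0.04 over all genes. Gapdh, Pgk1, Eno1 and other genes of this class have processed pseudogenes of like sequence in the mouse, and binding of their transcripts to these probes was not tested.

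**Figure D2:**
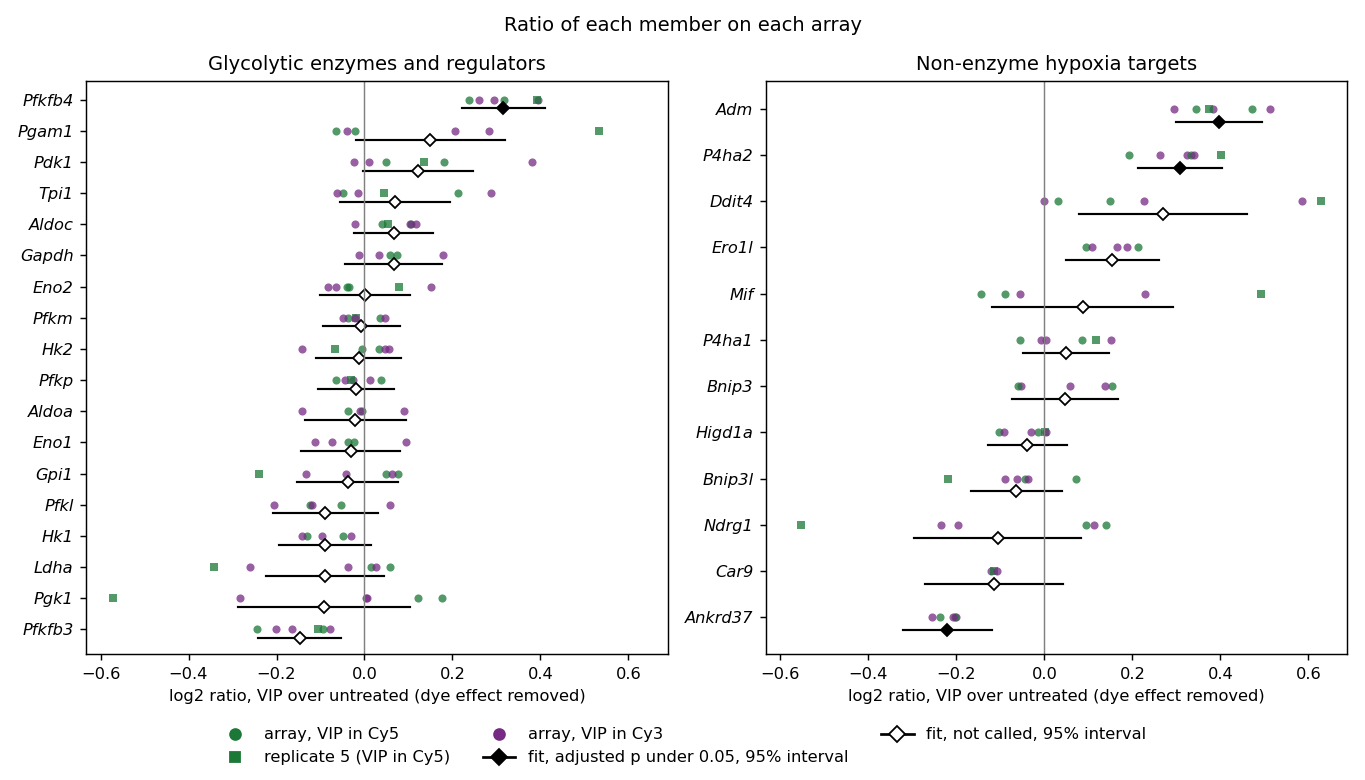
Log2 ratio of VIP over untreated on each array after removal of the gene's dye effect (circles and squares; squares are replicate 5), with the fitted ratio and its 95% interval below (diamonds, filled where the adjusted p is under 0.05), for the 18 glycolytic genes and the 12 hypoxia targets. Pfkfb4, Adm, P4ha2 and the uncalled Ero1l have all measured arrays above 0. Ankrd37 and the uncalled Pfkfb3, Hk1 and Car9 (3 arrays) have all below. Pgk1, Pgam1, Ndrg1 and Mif are drawn out by replicate 5.

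Among the hypoxia targets Adm had the largest ratio. It read 0.27, 0.40 and 0.30 with VIP in Cy5 and 0.58, 0.45 and 0.36 with VIP in Cy3. All 6 arrays were above 0, with replicate 2 highest and replicate 1 lowest. The slide means were 0.43, 0.43 and 0.33. The fitted log2 ratio was 0.40 ± 0.044 (SE, n = 6), a 1.32-fold higher signal with VIP, with a 95% interval of 0.30 to 0.50 and an adjusted p of 0.00114 in limma.

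P4ha2 and P4ha1 code for alternative catalytic subunits of the enzyme that hydroxylates proline in collagen, and both are known hypoxia targets. P4ha2 read 0.17, 0.31 and 0.38 with VIP in Cy5 and 0.35, 0.29 and 0.36 with VIP in Cy3, all above 0, with replicate 1 lowest. Its slide means were 0.26, 0.30 and 0.37, and the fitted ratio was 0.31 ± 0.043 (SE, n = 6), or 1.24-fold, with an adjusted p of 0.00393. A second probe of P4ha2 was too dim to be tested.

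P4ha1 stayed closer to 0, at 0.12, -0.02 and 0.15 with VIP in Cy5 and -0.03, -0.04 and 0.12 with VIP in Cy3. The fitted ratio of P4ha1 was 0.05 ± 0.044 (SE, n = 6), with a 95% interval of -0.05 to 0.15, and its second probe gave 0.04. P4ha2 exceeded P4ha1 on all 6 arrays, by 0.05 to 0.37, with a mean difference of 0.26 ± 0.10 (SD after removal of the dye effect, n = 6). The same exact permutation test gave the smallest possible p of 0.03125. Adjusted over the 9 pairs it was 0.141, where no value under 0.05 was possible. This pair too was chosen with earlier results of these data known, and no conclusion is drawn from its p. In the other 7 pairs of related genes the unadjusted p of this test ranged from 0.3125 to 0.9375.

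Ankrd37 was the member that fell. It read -0.32 and -0.28 on the 2 measured arrays with VIP in Cy5 and -0.12, -0.18 and -0.13 with VIP in Cy3. All 5 values were below 0, and those with VIP in Cy5 were lower than those with VIP in Cy3. The fitted log2 ratio was -0.22 ± 0.045 (SE, n = 5), or 0.858-fold, with a 95% interval of -0.32 to -0.12 and an adjusted p of 0.0386. This call was lost in 12 of 20 alternative settings, among them every fit that left out 1 of its 5 values (adjusted p from 0.0980 to 0.244) and the fit with the slide as a block (adjusted p = 0.106), while the ratio stayed between -0.24 and -0.17.

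Ddit4 (also called REDD1, an inhibitor of the growth kinase mTORC1 that stress induces) had a wide spread. It read -0.14, -0.02 and 0.46 with VIP in Cy5 and 0.17, 0.75 and 0.39 with VIP in Cy3. Slide 1 had a mean of 0.02, against 0.37 and 0.43 on slides 2 and 3. The fitted ratio of 0.27 ± 0.086 (SE, n = 6) was not called (adjusted p = 0.187), and it was 0.18 without replicate 5.

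Ero1l, an oxidase that forms disulphide bonds in the endoplasmic reticulum, read -0.01 and 0.11 with VIP in Cy5 and 0.27, 0.30 and 0.22 with VIP in Cy3. After removal of the dye effect all 5 values were above 0. The ratio of 0.15 ± 0.047 (SE, n = 5) had an adjusted p of 0.176, and a second probe gave 0.09.

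Bnip3 and Bnip3l, mitochondrial proteins that mark mitochondria for removal, were not called, at 0.05 ± 0.054 (SE, n = 5) and -0.06 ± 0.046 (SE, n = 6). The brightest Bnip3l probe had a dye effect of 0.26, with raw ratios from 0.04 to 0.33 with VIP in Cy5 and from -0.35 to -0.30 with VIP in Cy3. A second Bnip3l probe gave -0.12 ± 0.045 (SE, n = 6; limma adjusted p = 0.264). Higd1a, a mitochondrial inner membrane protein of the hypoxia response, was at -0.04 ± 0.040 (SE, n = 6). Its dimmer second probe gave -0.13 ± 0.041 (SE, n = 6; limma adjusted p = 0.157).

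Among the hypoxia targets that could be tested without replicate 5, Mif, a cytokine, and Ndrg1, a stress-induced protein, moved most when it was left out. Mif was at 0.09 ± 0.091 (SE, n = 5), with 0.59 on replicate 5, and at -0.01 without that array. Ndrg1 was at -0.11 ± 0.086 (SE, n = 6), with -0.63 on replicate 5, and at 0.01 without it. Car9, the membrane carbonic anhydrase used as a marker of hypoxia, had unflagged values on replicates 4, 5 and 6 only, of -0.29, 0.05 and -0.28, and its ratio of -0.11 ± 0.067 (SE, n = 3) was not called. Without replicate 5 it could not be tested.

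The 12 hypoxia targets had a median log2 ratio of 0.05, with 7 above and 5 below 0 and a range from -0.22 to 0.40. Their median absolute ratio was 0.11, against 0.07 for the glycolytic genes and 0.04 for all genes tested. The class median on single arrays had a mean of 0.05 ± 0.063 (SD, n = 6). In raw ratios, 4 of the 30 members were above 0 on every measured array (Pfkfb4, Gapdh, Adm and P4ha2) and 3 below (Pfkfb3, Hk1 and Ankrd37), where 3.85% and 2.79% of all genes were. Of the 20 members with values on all 6 arrays, replicate 5 lay farthest from the median for 7, and over all such genes for 26.9%. The dye effect was larger than the VIP effect for 15 of the 30 members, and for 13734 of all 22890 genes tested.

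The windows upstream of the called genes, and of Ldha and Pgk1, which were not called, are shown because both classes are known for hypoxia response elements near their start sites. Each is the 250 bases before a start site in RefSeq on GRCm38.p6, 5′ to 3′ on the gene's strand, and capitals mark the core ACGTG or GCGTG on either strand, the reverse strand reading CACGT or CACGC. The windows lie at chr9:108991652-108991901 for Pfkfb4, chr7:110627407-110627656 for Adm, chr11:54100674-54100923 for P4ha2, chr8:45999851-46000100 for Ankrd37 (minus strand), chr7:46845554-46845803 for Ldha, which has another start site as well, and chrX:106186850-106187099 for Pgk1.
Pfkfb4 upstream window: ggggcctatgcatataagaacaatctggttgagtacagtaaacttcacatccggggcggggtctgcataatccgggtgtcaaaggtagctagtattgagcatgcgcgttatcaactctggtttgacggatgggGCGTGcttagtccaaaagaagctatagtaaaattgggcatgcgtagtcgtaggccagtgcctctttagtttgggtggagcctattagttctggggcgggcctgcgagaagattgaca
Adm upstream window: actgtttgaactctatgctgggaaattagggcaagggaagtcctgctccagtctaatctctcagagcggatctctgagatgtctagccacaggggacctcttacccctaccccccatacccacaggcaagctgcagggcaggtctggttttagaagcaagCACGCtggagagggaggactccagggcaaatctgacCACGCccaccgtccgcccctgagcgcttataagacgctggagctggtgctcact
P4ha2 upstream window: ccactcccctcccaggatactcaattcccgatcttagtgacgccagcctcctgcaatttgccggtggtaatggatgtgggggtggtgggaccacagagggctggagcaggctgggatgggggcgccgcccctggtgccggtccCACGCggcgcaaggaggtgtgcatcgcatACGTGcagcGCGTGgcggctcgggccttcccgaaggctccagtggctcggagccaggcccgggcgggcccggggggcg
Ankrd37 upstream window: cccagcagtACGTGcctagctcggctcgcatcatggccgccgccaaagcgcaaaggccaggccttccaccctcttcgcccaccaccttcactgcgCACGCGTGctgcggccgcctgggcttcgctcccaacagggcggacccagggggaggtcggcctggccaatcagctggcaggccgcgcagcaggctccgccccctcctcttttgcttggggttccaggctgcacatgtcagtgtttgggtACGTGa
Ldha upstream window: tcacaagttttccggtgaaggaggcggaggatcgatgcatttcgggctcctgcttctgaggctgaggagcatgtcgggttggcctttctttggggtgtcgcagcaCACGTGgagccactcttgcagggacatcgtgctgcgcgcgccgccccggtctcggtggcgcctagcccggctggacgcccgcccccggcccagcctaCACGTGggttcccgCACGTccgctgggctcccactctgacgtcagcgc
Pgk1 upstream window: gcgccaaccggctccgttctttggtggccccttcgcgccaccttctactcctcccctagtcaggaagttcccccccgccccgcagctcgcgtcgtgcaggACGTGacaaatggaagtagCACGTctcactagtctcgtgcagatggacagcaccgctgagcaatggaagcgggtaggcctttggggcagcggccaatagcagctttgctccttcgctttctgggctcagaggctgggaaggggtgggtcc

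A core was present in the window of all 4 called genes and also in those of Ldha and Pgk1. Of the 31 listed genes, 29 were matched to a window by current symbol. Of these, 25 (86.2%) held a core in at least 1 window, against 41.5% of 27025 genes. Counted by window, a core was in 33 of 43 (76.7%), against 38.6% of 32851 windows. By class a core was held by 15 of 18 glycolytic genes and 10 of 11 hypoxia targets, and those without were Eno2, Gpi1, Tpi1 and Mif. Member windows were richer in G and C, with a median of 60.4% against 52.4%, and the part of base composition in these shares was not tested. The cyclic AMP response element TGACGTCA, the site of CREB, was in the windows of Ldha and Mif, or 2 of 29, against 1.8% of genes, and the 5-base form TGACG on either strand, which overlaps it, in 6 of 29 (20.7%) against 19.8%. These matches describe letters and not binding.

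Genes of the same pathways that are not among the members were followed in lists. The lists were chosen with earlier results of these data known, so their counts give no independent support to the calls. Over all genes tested, 1.65% were called higher and 0.459% lower. Of 18 other glycolysis genes tested, 1 was called, Pdk3 (a further kinase of pyruvate dehydrogenase), which rose by 0.33 ± 0.061 (SE, n = 5; limma adjusted p = 0.0262). Of 7 glucose and lactate transporters and their chaperone, the lactate exporter Slc16a3 rose by 0.21 ± 0.044 (SE, n = 6; adjusted p = 0.0351), a call lost without replicate 5 (0.18, adjusted p = 0.0516). The glucose transporter Slc2a1 was at -0.14 ± 0.052 (SE, n = 5) and was not called. None of 8 pentose phosphate genes was called in limma, none had an unadjusted p under 0.05, and the smallest adjusted p was 0.494, for G6pdx. The median ratios of these lists were 0.04, -0.01 and 0.02.

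Among 31 other hypoxia targets tested, 4 rose and none fell, with a median of 0.03, beside 1.65% and 0.459% of all genes. This list too was chosen with earlier results of these data known. Cxcr4, a chemokine receptor, rose by 0.50 ± 0.065 (SE, n = 5; adjusted p = 0.00408), Bhlhe40, a transcriptional repressor, by 0.36 ± 0.052 (SE, n = 5; adjusted p = 0.00705) and Mxi1, a MYC antagonist, by 0.33 ± 0.039 (SE, n = 6; adjusted p = 0.00169). Egln3, a prolyl hydroxylase that marks HIF alpha subunits for destruction, rose by 0.30 ± 0.044 (SE, n = 6; adjusted p = 0.00519). Without replicate 5 the list had 5 rises and 1 fall, the added ones being Rora and the glycogen branching enzyme Gbe1 (-0.27 ± 0.062, SE, n = 6, adjusted p = 0.0556 with all arrays). Of 8 HIF subunits and regulators 1 was called. Epas1, which codes for HIF-2 alpha, rose by 0.85 ± 0.051 (SE, n = 6; adjusted p = 4.91e-05), while Hif1a was at 0.23 ± 0.060 (SE, n = 6; adjusted p = 0.106); a difference between the 2 was not tested.

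**Figure D3:**
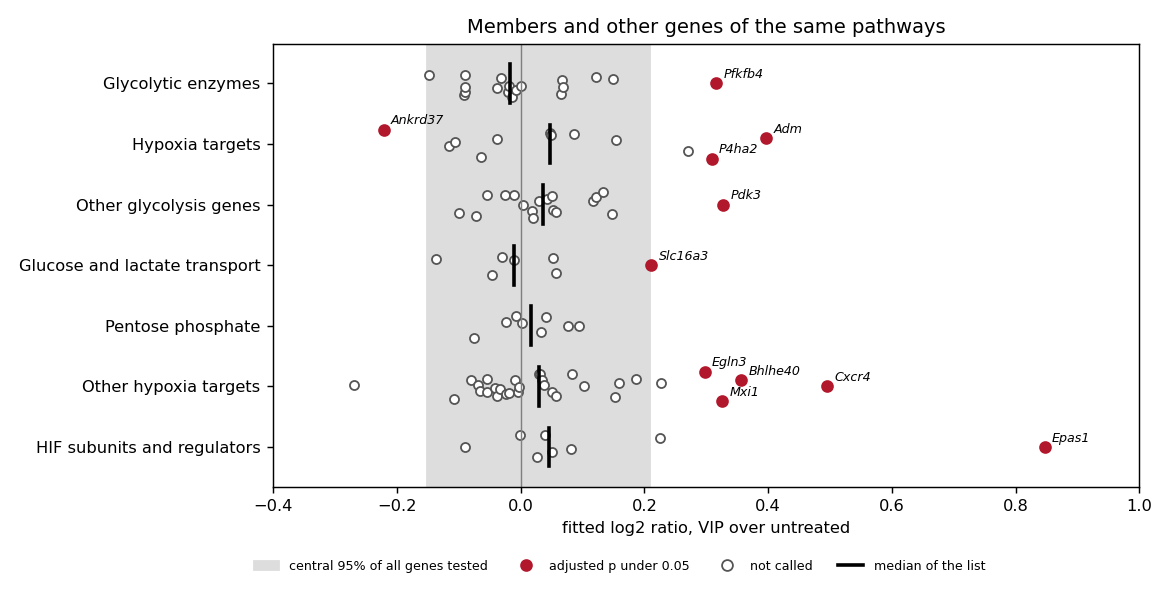
Fitted log2 ratio of VIP over untreated for the members (upper 2 lines) and for 5 lists of other genes of the same pathways; each point is a gene, red where the adjusted p is under 0.05, the bar is the list's median, and the grey band spans the central 95% of all genes tested, from -0.15 to 0.21. The medians lie between -0.02 and 0.05, and the called genes lie at the edge or outside the band.

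Markers of other cells that the bead selection could have let through were followed beside these results. Over all genes tested, 1.65% were called higher and 0.459% lower. Of 12 T cell markers, Cd28 and Cd2 rose, by 0.29 and 0.22. None of 8 B cell markers was called (median 0.04), nor any of 4 erythroid or 6 CD8 and NK markers (medians -0.05 and 0.03). Of 8 myeloid markers tested Cd14 rose by 0.57, with a list median of 0.03. The part of other cells in the ratios of the members was not tested, and in bulk RNA a change in the share of a cell type and in RNA per cell cannot be told apart.

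How firmly the 4 calls stood differed. The fitted ratios kept their sign in all 20 alternative settings, from 0.37 to 0.44 for Adm, 0.30 to 0.36 for Pfkfb4, 0.29 to 0.35 for P4ha2 and -0.24 to -0.17 for Ankrd37. Adm, Pfkfb4 and P4ha2 were called in each of the 6 fits that leave out 1 array. Adm was not called on Agilent's processed ratios (adjusted p = 0.0702) or with the channels unpaired, and Pfkfb4 and P4ha2 were also not called with a normexp offset of 0 or with median centring in place of loess. Calls over all genes fell in the same settings, from 378 higher genes to 19 on Agilent's processed ratios.

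**Figure D4:**
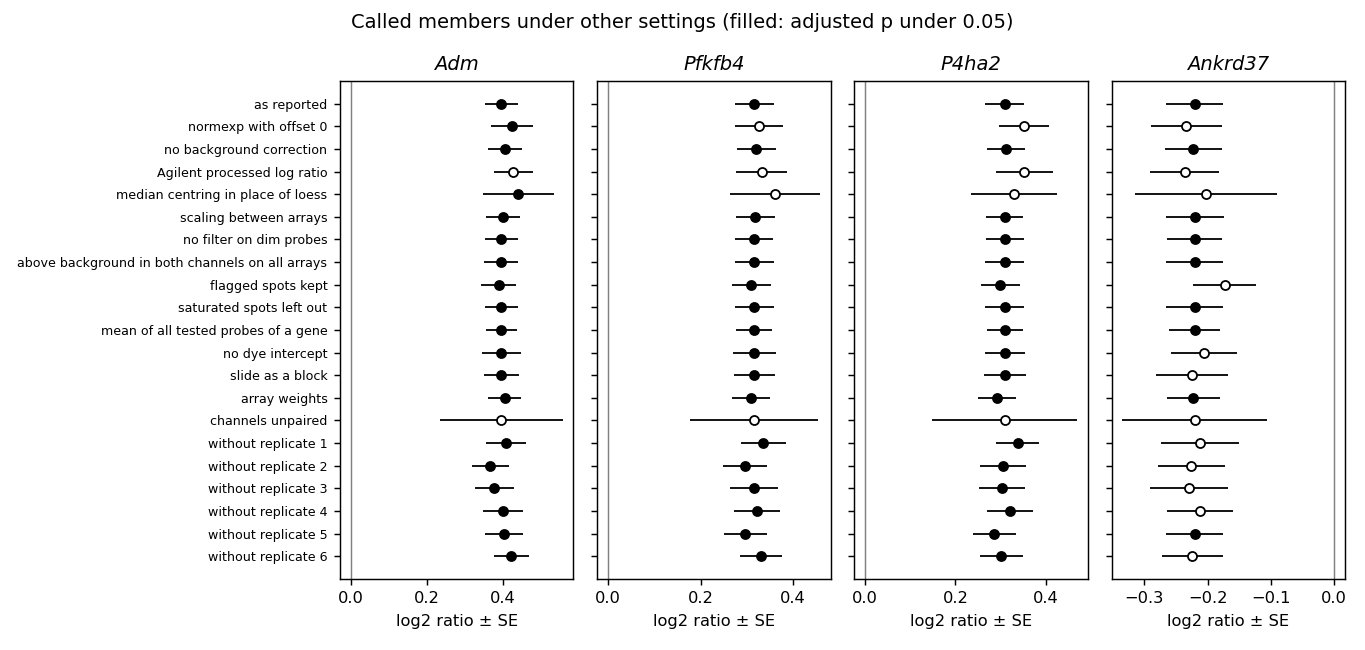
Fitted log2 ratio with its SE for the 4 called members as reported and under 20 alternative settings, filled where the adjusted p is under 0.05. The ratios stay on their side of 0 throughout, while the SE widens with median centring and with the channels unpaired.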

How the data were processed

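RNA of activated CD4 T cells with and without VIP was compared on two-colour Agilent arrays. Per the file headers, the authors used Agilent Feature Extraction 9.5.1.1 on the scans to obtain the spot intensity, local background and 0 or 1 flags used here. The deposited log10 ratio of processed intensity served as an alternative. The authors' series table holds the same log10 values turned to VIP over untreated (largest difference 4.5e-06), with column medians of 0, and -0.00022 on replicate 3. No RNA depth applies to arrays, and their number (6) limits the precision.

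The background (median local signal) was taken from the mean signal by normexp with an offset of 50. Each array was then loess-normalized in limma 3.58.1 under R 4.3.3, with control and flagged spots at weight 0. Flagged spots were left out and spots of a probe averaged. Tested genes had a probe well above background in 1 channel on at least 3 arrays, and the brightest such probe was used. The ratio within each array was fitted with lmFit and eBayes on VIP and a dye term (4 residual and 6.48 prior degrees of freedom) with Benjamini-Hochberg adjustment. The code was tested on simulated data. Members, lists, named genes (all called members, the 5 smallest p per class, called genes of other lists) and pairs of related genes were chosen with earlier results of these data known. Probe positions are mm9 and promoters GRCm38.p6, from RefSeq.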

Additional observations from a re-analysis of the deposited data

How the results depend on the processing

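Over all genes, calls of higher and lower genes, 378 and 105 as reported, were 85 and 10 with a normexp offset of 0, 19 and 0 on Agilent's processed ratios, 113 and 5 with median centring in place of loess, 189 and 38 with no dye term, and 1 and 0 with the channels unpaired. Array weights gave 513 higher and 211 lower genes. At an adjusted p under 0.01 there were 182 and 33, and under 0.1 there were 530 and 211. Leaving out 1 array gave 185 to 571 higher and 30 to 250 lower genes, the highest of both without replicate 5. The glycolytic class had 0 called genes with offset 0, on processed ratios, with median centring and with the channels unpaired. In those settings the hypoxia targets had 1 (Adm), 0, 1 (Adm) and 0. The median ratio of the glycolytic class was 0.053 with median centring and kept within 1 SD of the reported value in the other 19 settings. Leaving out 1 array changed neither class count by more than 1.5 times. Ratios of Pfkfb4, Adm, P4ha2, Ankrd37, Pfkfb3, Pdk1, Pgam1, Hk1, Ero1l and Ddit4 kept their sign in all 20 alternative settings. Among the other members, Pgk1, Gpi1, Eno2, Ndrg1 and Mif changed sign without replicate 5. The causes were not tested. The dye orders share no replicate number, so no array could be paired with a dye swap of the same replicate. By the labels each array is itself a comparison of both groups, and the reported fit used the ratio within each array. The slide, which holds 1 array of each dye order, could be fitted as a block and gave 355 higher and 104 lower genes, with the call of Ankrd37 lost (adjusted p = 0.106) and those of Pfkfb4, Adm and P4ha2 kept. List counts without replicate 5 were chosen after seeing the data. The 30 probes behind the members were above background on every array, and the background setting still moved calls, as with the normexp offset of 0.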
